A study of Mus musculus with 110 samples.

Results

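Interscapular brown adipose tissue (iBAT) of mice kept for a day in the cold after a week of methionine restriction (MetR_CE) was compared with iBAT of mice on the same diet kept at room temperature (MetR_RT). The comparison takes the 14 iBAT libraries whose titles name these groups, 7 of each, of 110 libraries in the whole series, and covers every gene that reached 10 counts when the fitted iBAT libraries were summed. All mice were male C57BL/6N mice, each housed alone and about 16 weeks old at the end of the study. MetR_RT mice ate a diet with 0.12% methionine for 7 days at 22 °C, and MetR_CE mice ate it for the same time and spent an additional day, 24 h, at 4 °C. Ctrl_RT and Ctrl_CE mice went through the same housing on a control diet whose labels give 0.86% methionine, and none of the diets contained cysteine. The question is which iBAT genes a cold exposure (CE) changes in animals whose fat is already under dietary restriction, and whether they change as they do in animals on the control diet. In iBAT, 6 Ctrl_RT libraries are available, and of 7 Ctrl_CE libraries 6 were fitted, since the study left 1 out.

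Brown adipocytes burn fatty acids and glucose for heat. In the cold, sympathetic nerves release noradrenaline onto their beta-adrenergic receptors, cyclic AMP rises, lipolysis begins, and protons that the respiratory chain has pumped out flow back through the uncoupling protein UCP1. Over hours the same signal raises the transcription of genes of heat production and fuel uptake. Restriction of the sulfur amino acids, methionine and cysteine, is known to raise energy expenditure and, in the liver, the hormone FGF21.

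The total counts of the libraries ran from 18251635 to 22407601 in MetR_RT (median 18899808) and from 12672686 to 29465562 in MetR_CE (median 22286986), and levels are given as CPM, counts scaled to library size with TMM factors. Defining markers of brown adipocytes were all present, and the summed level of 9 of them ran from 10570.0 to 12688 CPM in MetR_RT and from 16083 to 19576 CPM in MetR_CE. Skeletal muscle transcripts varied between libraries of both groups, with a summed level of 9 markers from 1.5 to 490.3 CPM in MetR_RT (median 65.8) and from 13.3 to 610.1 CPM in MetR_CE (median 119.9). Muscle genes led the first principal component of the 14 libraries (54.4% of the variance of the 500 most variable genes), and the second component (21.6%) separated the groups. The results were therefore repeated with the 4 MetR_RT and 3 MetR_CE libraries under 100 CPM of these markers, an alternative chosen after seeing the data. The treatment tag of 3 iBAT libraries disagrees with their title: MetR_RT replicate 1 (tagged as the control diet at room temperature), MetR_CE replicate 1 (tagged as the control diet in the cold) and Ctrl_CE replicate 1 (tagged as MetR at room temperature). By title, Dio2, a gene that rose in the cold, stood at 20.8 CPM in the first, 181.3 CPM in the second and 327.7 CPM in the third. In both MetR libraries title and tag differ in diet only, and Dio2 rose in the cold on either diet. Its level therefore cannot tell title from tag there. Only for Ctrl_CE replicate 1 do title and tag differ in temperature. Its Dio2 level lay above every room temperature library, which reached 53.6 CPM in MetR_RT and 123.5 CPM in Ctrl_RT. The library names of all 3 give the group of the title. The liver, inguinal fat and epididymal fat libraries of the same mice are tagged with that group as well.

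Of 23915 genes tested, 815 were higher in MetR_CE than in MetR_RT (3.41%) and 1226 were lower (5.13%), with an adjusted p under 0.05 and a change of at least 1.5-fold in edgeR's quasi-likelihood test. These are called differentially expressed genes (DEGs) here, and "rose" and "fell" are used for DEGs only. Among the 12583 genes with a mean of at least 1 CPM, 566 rose and 718 fell, and the median log2 fold change over all genes tested was -0.04. Every MetR_CE library was above every MetR_RT library for 1662 genes (6.95% of those tested) and below every one for 1154 genes (4.83%). Of the DEGs, 482 that rose and 499 that fell had groups that did not overlap. Percentages given below for gene lists are of the members tested. They are to be set beside the 3.41% that rose and 5.13% that fell of all genes tested. Without the muscle-rich libraries, 673 genes rose and 970 fell, and 1246 of these DEGs were shared with the fit of all libraries.

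**Figure D1:**
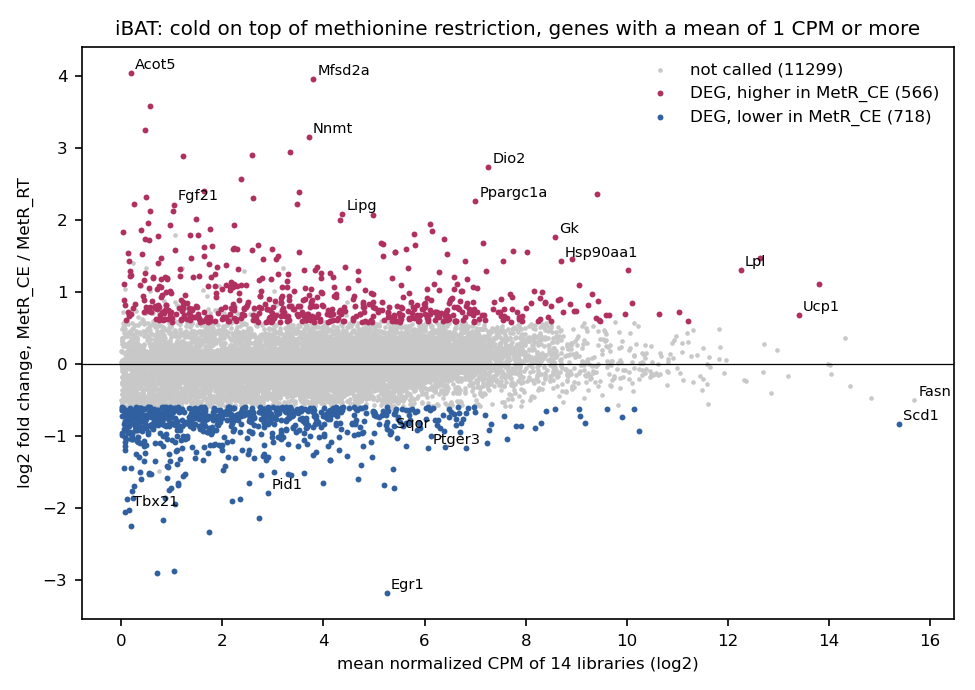
Log2 fold change of MetR_CE over MetR_RT (vertical) against the log2 of the mean normalized CPM of the 14 libraries (horizontal) for the 12583 genes with a mean of at least 1 CPM, with 566 DEGs that rose in red, 718 that fell in blue and 11299 others in grey. The largest rises are those of Acot5 and Mfsd2a near a log2 fold change of 4, while Ucp1, among the most abundant transcripts, lies at 0.68.

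The largest rises among DEGs with at least 1 CPM and groups that did not overlap were in Acot5, a peroxisomal acyl-CoA thioesterase (4.05 ± 0.44, log2 fold change ± SE), Mfsd2a, a carrier of lysophosphatidylcholine (3.96 ± 0.60), Nnmt, which methylates nicotinamide (3.16 ± 0.35), and the kinase gene Sgk2 (2.94 ± 0.28). Mfsd2a ranged from 0.581 to 4.02 CPM (median 1.55) in MetR_RT and from 14.4 to 33.3 CPM (median 29.7) in MetR_CE. Its lowest library in the cold stood well above its highest at room temperature. Acot5 was nearly silent at room temperature, at 0.0447 to 0.368 CPM (median 0.1), and reached 1.19 to 3.74 CPM (median 1.97) in the cold. Other genes with large rises by this rule were Cpne5 (2.90), Tacr2, a tachykinin receptor (2.89), Dio2 (2.73), Atf3 (2.57), Mb, which encodes the oxygen store myoglobin (2.39), Gmpr, a guanosine monophosphate reductase (2.36), and Ppargc1a (2.27). The abundant one of these is Gmpr, which ranged from 142.8 to 321.6 CPM (median 214.1) in MetR_RT and from 730.8 to 1437 CPM (median 1150.0) in MetR_CE.

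The largest falls by the same rule were in Tbx21, the T-box factor T-bet (-2.03 ± 0.28), Cdh23, a cadherin (-1.90 ± 0.24), Zc3h6, a zinc finger gene (-1.87 ± 0.18), and Fgf14 (-1.85 ± 0.29). They were followed by Pid1 (-1.78), Cspg5 (-1.76), Btc, the epidermal growth factor receptor ligand betacellulin (-1.72), Acsm3, a mitochondrial medium-chain acyl-CoA synthetase (-1.71), Lrtm1 (-1.69), Ccdc144b (-1.68), Tmem179 (-1.68) and Fer1l6 (-1.65). Tmem179 ranged from 38.1 to 78.9 CPM (median 55.7) in MetR_RT and from 12.7 to 23.1 CPM (median 16.8) in MetR_CE. Pid1, whose product dampens insulin signalling, ranged from 8.51 to 14.1 CPM (median 11.1) in MetR_RT and from 2.94 to 3.7 CPM (median 3.33) in MetR_CE. In both genes all cold libraries lay below all room temperature libraries. Lrtm1 stood at -1.59 without the muscle-rich libraries and was no longer called there.

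The 10 genes with the smallest adjusted p-values, with ties taken by the unadjusted p, were 4931406C07Rik (0.69 ± 0.05, adjusted p = 2.66e-11), Hsd17b7 (1.68 ± 0.11), Tbc1d9 (0.96 ± 0.06), Prdx6 (0.79 ± 0.05), Fam131c (2.22 ± 0.15), Mapkapk2 (1.03 ± 0.07), Grik5, a kainate receptor subunit (-1.53 ± 0.11), Ankrd9 (1.69 ± 0.12), Agpat1 (0.68 ± 0.05) and Pid1. Prdx6, a peroxiredoxin that reduces phospholipid hydroperoxides, ranged from 171.1 to 207.1 CPM (median 193.3) in MetR_RT and from 315.8 to 343.9 CPM (median 322.7) in MetR_CE. Mapkapk2, a kinase downstream of p38, ranged from 171.6 to 205.5 CPM (median 193.9) in MetR_RT and from 338.2 to 433.1 CPM (median 386.1) in MetR_CE. In both, the gap between the groups exceeded the range within either group.

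Brown and thermogenic genes rose or stayed within the threshold, and 0 fell. Of 28 genes in the list, 7 rose (25.0%), and the median log2 fold change was 0.19. Dio2, the deiodinase that makes active thyroid hormone inside the cell, ranged from 20.8 to 53.6 CPM (median 47.5) in MetR_RT and from 181.3 to 333.1 CPM (median 263.5) in MetR_CE. Its log2 fold change was 2.73 ± 0.25, adjusted p = 1.93e-09. Ppargc1a, the coactivator that drives mitochondrial biogenesis, ranged from 38 to 53.4 CPM (median 40.7) in MetR_RT and from 153.1 to 354.7 CPM (median 177.2) in MetR_CE and had a log2 fold change of 2.27 ± 0.19, adjusted p = 9.03e-10. In both genes the groups were apart, and within MetR_CE a single library of Ppargc1a stood at 354.7 CPM against a median of 177.2 CPM. Ucp1 ranged from 7290.0 to 9650.5 CPM (median 8162) in MetR_RT and from 12111 to 14813 CPM (median 13682) in MetR_CE, a log2 fold change of 0.68 ± 0.07, adjusted p = 4.57e-08. It made up 0.718% to 0.912% of all counts in MetR_RT and 1.19% to 1.43% in MetR_CE. Elovl3, an elongase of very long fatty acids and a classic cold-induced gene of brown fat, ranged from 505.2 to 714.2 CPM (median 583.8) in MetR_RT and from 1341 to 1694 CPM (median 1486) in MetR_CE, with a log2 fold change of 1.31 ± 0.12, adjusted p = 2.9e-09. The others that rose were the potassium channel gene Kcnk3 (0.85 ± 0.07), the constitutively active receptor gene Gpr3 (2.34 ± 0.32) and the nuclear receptor gene Esrra (0.60 ± 0.05), which lies at the threshold and was not called without MetR_CE replicate 4 (0.56) or without MetR_RT replicate 3 (0.58). The identity genes Prdm16 (-0.04 ± 0.09) and Cidea (0.16 ± 0.06) did not pass the threshold.

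Promoter sequences are shown for 6 genes that rose, each of which holds the letters of a known response element, so that these can be seen. They do not stand for their gene lists as a whole. They are RefSeq promoters of the GRCm38.p6 assembly, from 250 bases before to 50 bases after the start of the gene, printed 5′ to 3′ on the gene's strand. In the first of them, Dio2 (chr12:90738989-90739288, minus strand), capitals mark the full cyclic AMP response element TGACGTCA. In Ppargc1a (chr5:51567676-51567975, minus strand) and Ucp1 (chr8:83290098-83290397, plus strand) they mark the shorter core TGACG, or CGTCA where it lies on the other strand. In Fgf21 (chr7:45615441-45615740, minus strand) and Atf3 (chr1:191183284-191183583, minus strand) they mark TGATGNAA, the letters of the amino acid response element bound by ATF4 with its partners, here on the other strand. In Hspe1 (chr1:55087898-55088197, plus strand) they mark the heat shock element, searched as 3 alternating units of GAA and TTC with 2 bases between neighbours.
Dio2: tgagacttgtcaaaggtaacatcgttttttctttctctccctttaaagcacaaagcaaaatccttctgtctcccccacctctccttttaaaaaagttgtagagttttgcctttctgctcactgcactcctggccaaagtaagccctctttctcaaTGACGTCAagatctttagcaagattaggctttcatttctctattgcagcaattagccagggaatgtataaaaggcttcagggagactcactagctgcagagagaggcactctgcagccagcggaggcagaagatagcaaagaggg
Ppargc1a: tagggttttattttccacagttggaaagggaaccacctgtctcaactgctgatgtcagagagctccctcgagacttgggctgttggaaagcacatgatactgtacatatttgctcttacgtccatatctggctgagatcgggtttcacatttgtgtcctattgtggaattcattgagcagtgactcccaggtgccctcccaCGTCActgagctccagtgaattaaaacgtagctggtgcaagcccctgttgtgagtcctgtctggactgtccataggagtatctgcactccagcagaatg
Ucp1: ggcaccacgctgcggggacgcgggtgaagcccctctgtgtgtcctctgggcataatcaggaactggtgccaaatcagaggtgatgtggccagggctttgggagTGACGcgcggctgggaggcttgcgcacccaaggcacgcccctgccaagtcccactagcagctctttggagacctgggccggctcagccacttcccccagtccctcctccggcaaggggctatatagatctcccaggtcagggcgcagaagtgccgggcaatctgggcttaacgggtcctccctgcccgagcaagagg
Fgf21: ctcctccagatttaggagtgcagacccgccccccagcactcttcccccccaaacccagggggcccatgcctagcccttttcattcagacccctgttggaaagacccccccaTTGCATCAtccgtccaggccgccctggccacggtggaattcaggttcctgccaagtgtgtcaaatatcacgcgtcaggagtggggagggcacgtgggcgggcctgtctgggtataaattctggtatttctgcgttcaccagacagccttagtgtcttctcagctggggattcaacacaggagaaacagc
Atf3: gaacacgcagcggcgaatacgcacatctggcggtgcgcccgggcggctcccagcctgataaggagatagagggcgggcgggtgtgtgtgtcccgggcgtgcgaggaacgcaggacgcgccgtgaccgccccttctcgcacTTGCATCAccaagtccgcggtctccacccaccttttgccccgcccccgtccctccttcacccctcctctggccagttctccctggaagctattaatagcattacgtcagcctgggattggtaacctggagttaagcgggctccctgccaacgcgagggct
Hspe1: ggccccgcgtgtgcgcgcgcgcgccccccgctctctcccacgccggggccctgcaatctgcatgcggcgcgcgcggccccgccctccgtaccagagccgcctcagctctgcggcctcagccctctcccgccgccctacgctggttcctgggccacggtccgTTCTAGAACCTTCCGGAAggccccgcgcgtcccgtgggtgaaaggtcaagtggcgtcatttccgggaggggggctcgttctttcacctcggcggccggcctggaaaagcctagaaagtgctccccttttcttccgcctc

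Each motif was searched on both strands, and TGACG lies within TGACGTCA. Of 27025 gene symbols with a promoter, 2.03% hold TGACGTCA, 23% hold TGACG, 4.51% hold TGATGNAA and 0.662% hold a heat shock element. Among genes of at least 1 CPM with a promoter, TGACG was in 35.9% of 9479 genes tested, in 31.3% of 402 that rose and in 26.9% of 502 that fell. TGACGTCA was in 3.57%, 2.49% and 1.79% of them. The element AAGGTCA of estrogen-related receptors was in 4.02% of the genes tested, 7.71% of those that rose and 3.19% of those that fell. TGATGNAA was in 2.76%, 3.98% and 3.98%, and the heat shock element in 0.57%, 0.746% and 0.797%. Of the genes that rose and have a promoter, TGATGNAA was in 2 of 8 of the integrated stress response list described below, Fgf21 and Atf3. The heat shock element was in 2 of 5 of the heat shock list. Among thermogenic genes that rose, TGACG was in 4 of 5 and TGACGTCA in 1 of 5, Dio2. Of all members tested with a promoter, TGATGNAA was in 9 of 28 of the integrated stress response list, Asns among them. The heat shock element was in 3 of 12 of the heat shock list. Of the thermogenic genes tested, TGACG was in 7 of 21 and TGACGTCA in 1 of 21. The letters TTGCATCA stand in the same form in the promoters of Fgf21 and Atf3.

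The genes of adrenergic and cyclic AMP signalling moved in both directions, with 6 that rose (15.8%) and 3 that fell (7.89%) of 38 (median log2 fold change 0.10). Among the enzymes, Adcy3, the adenylyl cyclase of brown fat, ranged from 181.3 to 374.5 CPM (median 267.6) in MetR_RT and from 589.5 to 825.1 CPM (median 694.6) in MetR_CE, with a log2 fold change of 1.47 ± 0.16, adjusted p = 7.34e-08. Adcy4, another adenylyl cyclase (0.79 ± 0.08), and Prkar2a, a regulatory subunit of protein kinase A (0.79 ± 0.08), rose as well. Among the receptors, Adra1d, an alpha-1 receptor, fell (-0.95 ± 0.14), while Adrb1 (0.42 ± 0.15) and Adrb3, the main receptor of brown adipocytes (0.06 ± 0.14), were not called. Of the immediate early genes, the orphan receptor gene Nr4a3 ranged from 0.358 to 3.26 CPM (median 0.652) in MetR_RT and from 2.9 to 8.17 CPM (median 4.77) in MetR_CE (2.40 ± 0.39), and its groups overlapped in 1 or more libraries. Egr1 went the other way and ranged from 3.53 to 172.7 CPM (median 48.4) in MetR_RT and from 3.37 to 25.7 CPM (median 4.54) in MetR_CE, a log2 fold change of -3.18 ± 0.73, adjusted p = 0.00138. Fos ranged from 0.645 to 13.8 CPM (median 3.15) in MetR_RT and from 0.674 to 1.72 CPM (median 1.07) in MetR_CE (-2.32 ± 0.60). Both had a wide spread at room temperature, their groups overlapped, and Fos was not called without the muscle-rich libraries (-1.58).

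**Figure D2:**
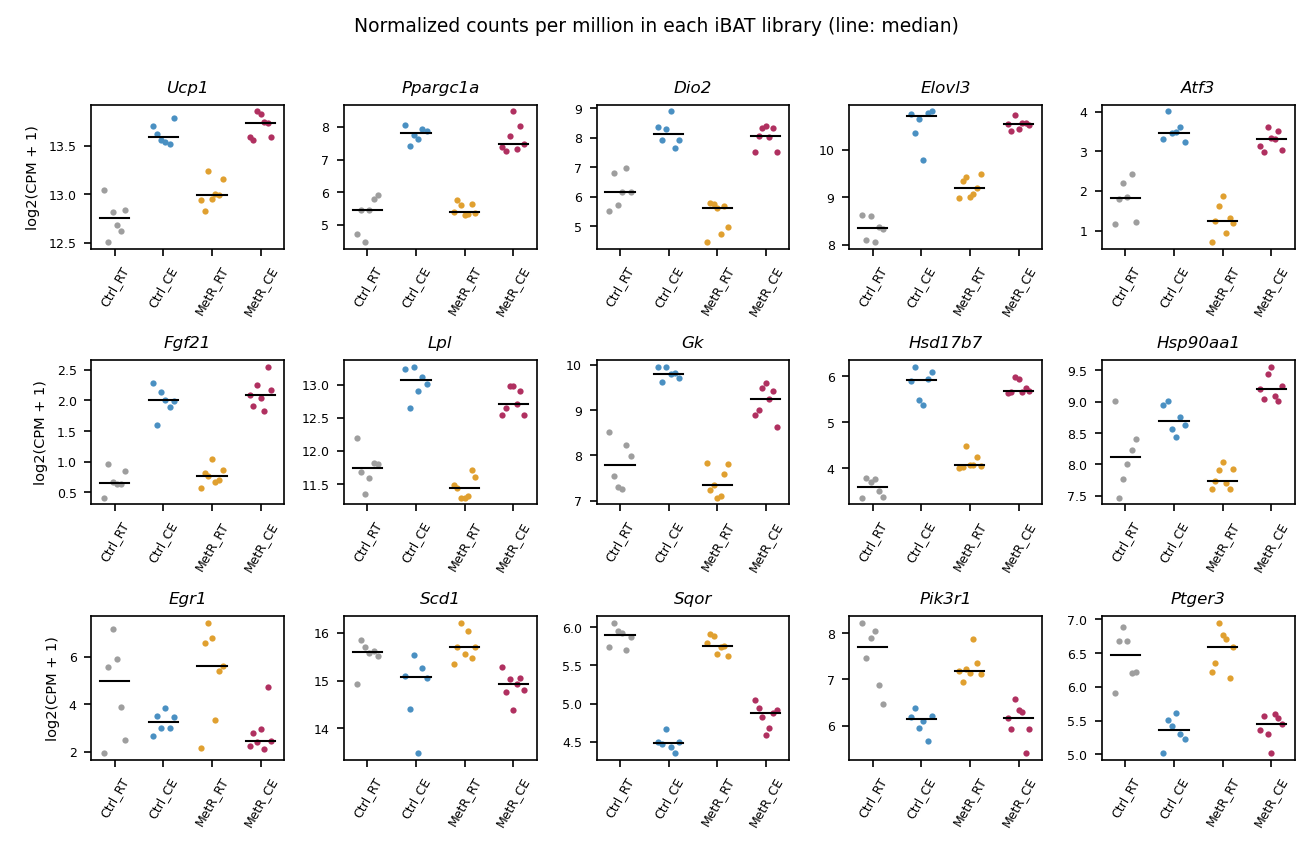
Normalized CPM, as log2(CPM + 1), of 15 genes in each of the 26 iBAT libraries fitted, by group (6 Ctrl_RT, 6 Ctrl_CE, 7 MetR_RT and 7 MetR_CE), with a line at the median and a vertical axis of its own for each gene. Ucp1, Ppargc1a, Dio2, Elovl3, Atf3, Fgf21, Lpl, Gk, Hsd17b7 and Hsp90aa1 are higher in every MetR_CE library than in every MetR_RT library, Scd1, Sqor, Pik3r1 and Ptger3 are lower in every one, and Egr1 overlaps.

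Of the 22 genes of thyroid and nuclear receptor signalling, 4 rose (18.2%) and 3 fell (13.6%). Beside Dio2 and Esrra, these included the orphan receptor gene Esrrb (1.09 ± 0.17) and the kinase gene Sgk1 (0.92 ± 0.12), which rose, and the mineralocorticoid receptor gene Nr3c2 (-0.76 ± 0.12) and Zbtb16 (-1.28 ± 0.34), which fell. Zbtb16 was not called without the muscle-rich libraries, where it stood at -1.48. The glucocorticoid target Fkbp5 overlapped between the groups (0.12 ± 0.27).

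Of the 15 genes of heat-producing cycles that do not need UCP1, 3 rose and 1 fell (median log2 fold change 0.40). Gk, glycerol kinase, which lets a cell reuse the glycerol of its own lipolysis, ranged from 132.9 to 226.8 CPM (median 161.2) in MetR_RT and from 392.0 to 768.2 CPM (median 608.8) in MetR_CE, with a log2 fold change of 1.76 ± 0.18, adjusted p = 1.17e-08. Ckb, the creatine kinase of the futile creatine cycle, ranged from 16.4 to 38.3 CPM (median 20.8) in MetR_RT and from 57.8 to 147.4 CPM (median 84.4) in MetR_CE (1.81 ± 0.26), and Alpl, the alkaline phosphatase that hydrolyses phosphocreatine in that cycle, ranged from 38.1 to 61.8 CPM (median 47.3) in MetR_RT and from 84.9 to 97.5 CPM (median 89.9) in MetR_CE (0.89 ± 0.10). None of the 3 overlapped between the groups. Without the muscle-rich libraries 3 genes rose and 3 fell of 14 tested.

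Of 20 genes that bring lipid into the cell, 7 rose and 2 fell (median log2 fold change 0.36). Lpl, which releases fatty acids from lipoproteins at the capillary wall, ranged from 2509 to 3359.8 CPM (median 2779) in MetR_RT and from 5980.0 to 8051 CPM (median 6649) in MetR_CE, a log2 fold change of 1.31 ± 0.11, adjusted p = 5.2e-10. Lipg, endothelial lipase, ranged from 5.32 to 11.2 CPM (median 7.18) in MetR_RT and from 24.8 to 42.9 CPM (median 31.7) in MetR_CE (2.08 ± 0.16, adjusted p = 2.09e-10). Fabp3, a fatty acid carrier of oxidative tissues, ranged from 78.5 to 219.1 CPM (median 124.3) in MetR_RT and from 278.4 to 502.7 CPM (median 371.2) in MetR_CE (1.57 ± 0.22, adjusted p = 2.5e-06). In all 3 genes the groups did not overlap. The acyl-CoA synthetase genes Acsl5 (0.73 ± 0.08) and Slc27a2 (0.93 ± 0.15) rose, while Slc27a1, the other fatty acid transport protein, fell from 370.3 to 187.7 CPM in the median (-0.88 ± 0.11). Angptl4, an inhibitor of lipoprotein lipase, fell (-0.67 ± 0.16) but was not called without MetR_RT replicate 4 (-0.56). Gpihbp1, which anchors lipoprotein lipase on endothelium, stayed under the 1.5-fold threshold (0.33 ± 0.06).

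Of 30 genes of triglyceride synthesis, lipolysis and droplet proteins, 4 rose (13.3%) and 1 fell (3.33%). In the edgeR test 17 were higher and 5 lower at an adjusted p under 0.05, whatever the size of the change. Gpat4, which begins triglyceride synthesis, ranged from 312.4 to 423.9 CPM (median 374.3) in MetR_RT and from 571.7 to 676.2 CPM (median 614.4) in MetR_CE (0.75 ± 0.07). Plin2, a coat protein of lipid droplets, ranged from 1621 to 2247 CPM (median 1849) in MetR_RT and from 2672 to 3005 CPM (median 2891) in MetR_CE (0.61 ± 0.07) and fell under the threshold without MetR_RT replicate 1 (0.57). It was under the threshold as well without the 3 libraries with another tag (0.56). The lipases of the droplet overlapped between the groups and were not called, with -0.16 ± 0.05 for Pnpla2 and -0.14 ± 0.05 for Lipe. Lpin1, a phosphatidate phosphatase, was higher in every cold library at 0.54 ± 0.09.

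Fatty acid synthesis was among the lists with the lowest median (-0.27), and of its 19 genes 4 fell (21.1%) and 1 rose (5.26%). Scd1, the desaturase that makes oleate, ranged from 41989 to 76262 CPM (median 53076) in MetR_RT and from 21317 to 40065 CPM (median 31282) in MetR_CE and had a log2 fold change of -0.83 ± 0.20, adjusted p = 0.00231. The citrate carrier gene Slc25a1 (-0.92 ± 0.15), the acetyl-CoA synthetase gene Acss2 (-0.81 ± 0.14) and Pnpla3 (-0.81 ± 0.13) fell as well. Fasn, the most abundant transcript of the list, was lower in every cold library, ranging from 55647 to 70016 CPM (median 61114) in MetR_RT and from 40152 to 47607 CPM (median 43853) in MetR_CE, which is less than 1.5-fold (-0.49 ± 0.08). Acly overlapped between the groups (-0.17 ± 0.14), and Scd3 rose (1.23 ± 0.22).

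Fatty acid oxidation had a median of 0.00 over 31 genes, with 1 gene that rose and 1 that fell (3.23% each). Cpt1a, the liver-type entry enzyme of oxidation, ranged from 16.6 to 24.9 CPM (median 18) in MetR_RT and from 29.9 to 40.1 CPM (median 35.6) in MetR_CE (0.79 ± 0.11, adjusted p = 2.07e-06). The muscle-type enzyme gene Cpt1b, more abundant than Cpt1a in counts, was higher in every cold library but under 1.5-fold (0.47 ± 0.05). Eci1, an enoyl-CoA isomerase, fell (-0.64 ± 0.05, adjusted p = 7.87e-10). Of 41 genes of the TCA cycle and respiratory chain, 0 passed the 1.5-fold threshold, with 18 lower and 2 higher at an adjusted p under 0.05 in the edgeR test, and a median log2 fold change of -0.11. The mitochondrially encoded mt-Co1 ranged from 30343 to 37794 CPM (median 33132) in MetR_RT and from 20908 to 27284 CPM (median 23571) in MetR_CE (-0.46 ± 0.08), and mt-Nd1 overlapped between the groups (-0.13 ± 0.07). Of 33 genes of glucose uptake and glycolysis 1 rose and 1 fell (3.03% each). The gene that rose was Pfkfb3, which makes the activator of phosphofructokinase (0.75 ± 0.19). The pyruvate carboxylase gene Pcx fell (-0.62 ± 0.09). It was not called without MetR_RT replicate 3 (-0.57), MetR_RT replicate 5 (-0.58) or MetR_CE replicate 5 (-0.58). The insulin-sensitive transporter gene Slc2a4 stood at 0.28 ± 0.05 and Hk2 at 0.16 ± 0.08.

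Cholesterol synthesis rose in part: 7 of 24 genes rose (29.2%), 0 fell, and the median was 0.29. Hsd17b7, which acts late in the pathway, ranged from 15 to 21.4 CPM (median 15.7) in MetR_RT and from 48.5 to 62.7 CPM (median 50.4) in MetR_CE, a log2 fold change of 1.68 ± 0.11, adjusted p = 2.66e-11. Its groups did not overlap. Cyp51 (0.77 ± 0.15), Msmo1 (0.70 ± 0.12) and Sqle (0.69 ± 0.16) also rose, while Hmgcs1, the first committed step, was higher in every cold library at 0.31 ± 0.09.

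**Figure D3:**
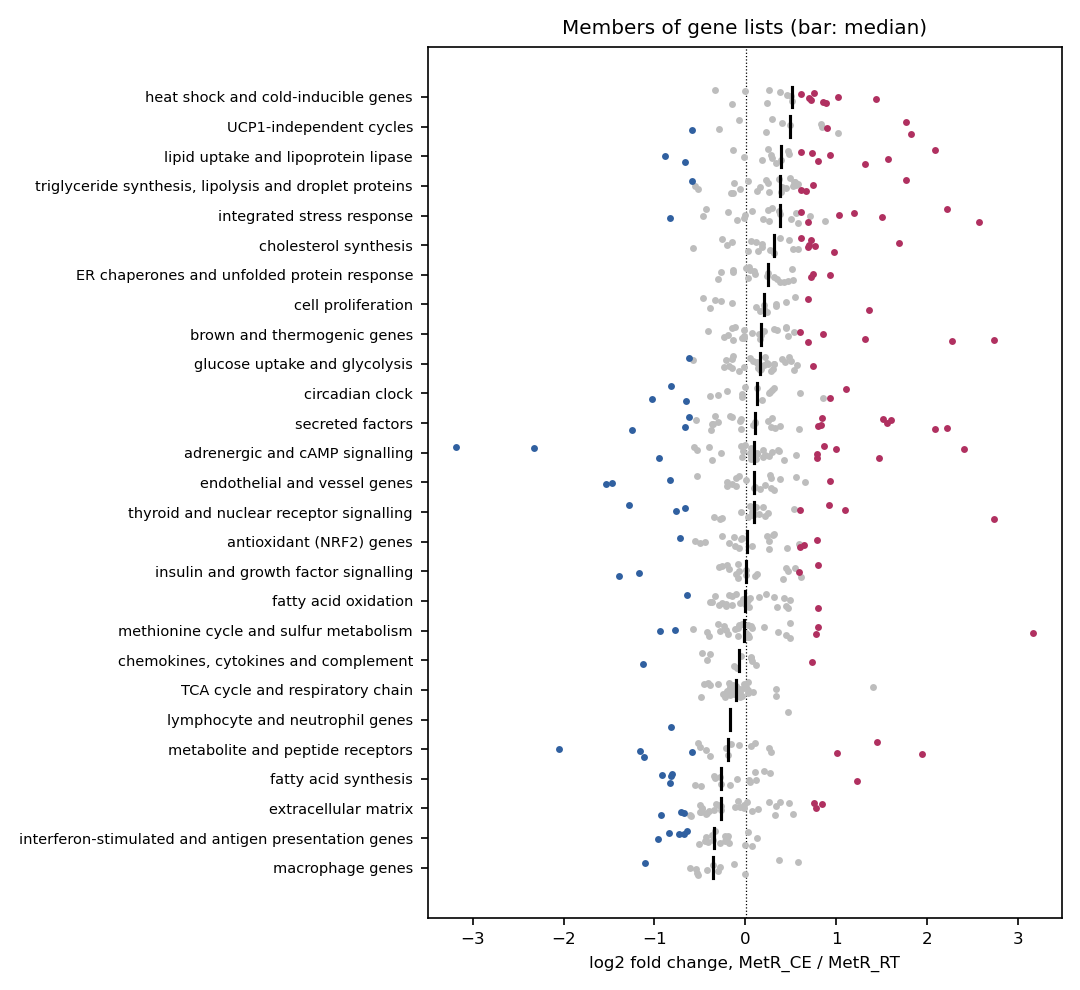
Log2 fold change of MetR_CE over MetR_RT (horizontal) for the members of 27 gene lists with a mean of at least 1 CPM, ordered by the list median (black bar), with DEGs that rose in red and DEGs that fell in blue. The dotted line marks the median of all genes of at least 1 CPM, 0.00. Of the lists drawn, heat shock genes lie highest, with a median of 0.51, and macrophage genes lowest, at -0.36.

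Of 17 heat shock and cold-inducible genes 8 rose (47.1%) and 0 fell, with a median of 0.51. In the edgeR test 13 were higher at an adjusted p under 0.05. Hsp90aa1, the inducible form of the chaperone HSP90, ranged from 195.2 to 262.2 CPM (median 212.9) in MetR_RT and from 516.5 to 749.6 CPM (median 585.5) in MetR_CE, with a log2 fold change of 1.44 ± 0.15, adjusted p = 3.65e-08. Hspb1, a small heat shock protein, ranged from 55.3 to 87.4 CPM (median 73.7) in MetR_RT and from 108.6 to 189.5 CPM (median 129.5) in MetR_CE (1.02 ± 0.17, adjusted p = 2.23e-05). Bag3, a cochaperone of HSP70, ranged from 45.4 to 57.5 CPM (median 51.8) in MetR_RT and from 81 to 91.4 CPM (median 87) in MetR_CE (0.75 ± 0.07, adjusted p = 1.32e-09). In each of these the groups were apart. Hsp90ab1, the constitutive form of HSP90, rose (0.70 ± 0.10), and so did Hspe1, the mitochondrial chaperonin whose promoter is printed above, with a mean of 115.6 CPM in MetR_RT and 176.5 CPM in MetR_CE (0.61 ± 0.11). Hspe1 is named for its promoter, after its values were seen. The strongly inducible HSP70 genes Hspa1a (-0.15 ± 0.58) and Hspa1b (0.23 ± 0.47) overlapped between the groups, as did the cold-inducible RNA-binding protein genes Cirbp (-0.33 ± 0.15) and Rbm3 (0.26 ± 0.10).

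The integrated stress response is the program by which cells short of an amino acid raise the factor ATF4 and its targets. Of 34 such genes 9 rose (26.5%) and 1 fell (2.94%) under MetR, with a median of 0.37. On the control diet 17 of them rose in the cold and 2 fell, where 4.98% of all genes tested rose and 9.73% fell. Without the muscle-rich libraries 11 rose on either diet. Among the factors, Atf4 itself was higher in every cold library (0.57 ± 0.13), just under the threshold, and passed it without MetR_CE replicate 1, 2 or 7 or MetR_RT replicate 2, 3 or 4 (0.59 to 0.61). Atf3 ranged from 0.626 to 2.66 CPM (median 1.36) in MetR_RT and from 6.95 to 11.2 CPM (median 8.96) in MetR_CE, a log2 fold change of 2.57 ± 0.26, adjusted p = 1.17e-08. Among the hormones, Fgf21 ranged from 0.492 to 1.05 CPM (median 0.699) in MetR_RT and from 2.54 to 4.84 CPM (median 3.26) in MetR_CE (2.22 ± 0.20, adjusted p = 1.93e-09), and Gdf15, which reports cell stress to the brain stem, ranged from 0.105 to 0.349 CPM (median 0.258) in MetR_RT and from 0.983 to 2.67 CPM (median 1.47) in MetR_CE (2.84 ± 0.34, adjusted p = 2.65e-07). Both were apart between the groups and low in absolute terms. Among the enzymes and carriers, Psat1 of serine synthesis (1.5 ± 0.31), Mthfd2 of mitochondrial folate (1.03 ± 0.33) and Slc3a2, the heavy chain of amino acid transporters, rose, the last ranging from 62.4 to 82.1 CPM (median 70.6) in MetR_RT and from 134.6 to 189.1 CPM (median 151.8) in MetR_CE (1.19 ± 0.10, adjusted p = 5.01e-10). Mthfd2 was under the threshold when the 3 libraries with another tag were left out, at 0.95, by its adjusted p. Asns, asparagine synthetase and a common readout of amino acid shortage, overlapped between the groups, ranging from 59.7 to 77.6 CPM (median 66.9) in MetR_RT and from 60.2 to 80.2 CPM (median 64.6) in MetR_CE (-0.02 ± 0.11). Nupr1 fell (-0.83 ± 0.12).

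In the methionine cycle and sulfur metabolism, 3 genes rose (9.38%) and 2 fell (6.25%) of 32, with a median of -0.02. Nnmt, which spends S-adenosylmethionine to methylate nicotinamide, ranged from 1.16 to 4.2 CPM (median 2.45) in MetR_RT and from 9.63 to 43 CPM (median 22.5) in MetR_CE, a log2 fold change of 3.16 ± 0.35, adjusted p = 5.86e-08. Gnmt, another consumer of S-adenosylmethionine (0.78 ± 0.20), and Odc1, which begins polyamine synthesis (0.79 ± 0.06), rose, and Mat2a, which makes S-adenosylmethionine, was higher in every cold library at 0.48 ± 0.06. The genes that fell act on sulfide and sulfite in mitochondria. Sqor, the sulfide oxidoreductase, ranged from 48.3 to 59.2 CPM (median 53.1) in MetR_RT and from 23 to 32 CPM (median 28.3) in MetR_CE (-0.94 ± 0.07, adjusted p = 9.13e-11), and Suox, sulfite oxidase, ranged from 61 to 74.2 CPM (median 63.7) in MetR_RT and from 35.9 to 42.6 CPM (median 37.5) in MetR_CE (-0.77 ± 0.06, adjusted p = 3.7e-10). Both were lower in every cold library. The cysteine dioxygenase gene Cdo1 (0.00 ± 0.08) and the cystathionine gamma-lyase gene Cth (-0.19 ± 0.19) overlapped between the groups.

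Of 23 antioxidant genes 3 rose and 1 fell, with Txnrd1, thioredoxin reductase, at 0.64 ± 0.05 beside Prdx6. Hmox1, heme oxygenase, rose at 0.60 ± 0.17 and was under the threshold without MetR_CE replicate 1 (0.58), MetR_CE replicate 7 (0.49), MetR_RT replicate 1 (0.50) or MetR_RT replicate 6 (0.58). The same held without the 3 libraries with another tag (0.48). Of 23 genes of the endoplasmic reticulum stress response 3 rose and 0 fell, namely Manf (0.74 ± 0.09), Dnajb9 (0.72 ± 0.08) and Sdf2l1 (0.93 ± 0.17), while the main chaperone gene Hspa5 was higher in every cold library at 0.43 ± 0.07.

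Among 39 secreted factors tested 9 rose (23.1%) and 3 fell (7.69%). Bmp8b, a signal by which brown fat is known to act on its own nerve supply and vessels, ranged from 5.19 to 21 CPM (median 12.2) in MetR_RT and from 37 to 67.9 CPM (median 53.8) in MetR_CE (2.08 ± 0.32, adjusted p = 1.14e-05). Igfbp3, which binds insulin-like growth factors, ranged from 17.3 to 26.4 CPM (median 21.6) in MetR_RT and from 40.03 to 85.9 CPM (median 60.4) in MetR_CE (1.56 ± 0.16, adjusted p = 1.51e-08). Fgf1 (1.51 ± 0.16) and Fgf9 (1.59 ± 0.23) rose with Fgf21 and Gdf15. Lep, leptin, fell and ranged from 3.89 to 15.7 CPM (median 8.98) in MetR_RT and from 2.83 to 5.39 CPM (median 4.19) in MetR_CE (-1.25 ± 0.38, adjusted p = 0.0142), with overlap between the groups. Adipoq, adiponectin, was lower in every cold library, under 1.5-fold (-0.38 ± 0.07), and Nrg4 overlapped (0.32 ± 0.10).

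Receptors for metabolites and peptides split, with 4 that rose (16.7%) and 5 that fell (20.8%) of 24 tested. Ffar4, a receptor of long-chain fatty acids, ranged from 12.5 to 46.5 CPM (median 27) in MetR_RT and from 75.5 to 145.7 CPM (median 107.7) in MetR_CE (1.94 ± 0.31, adjusted p = 1.47e-05). Npr3, the clearance receptor of natriuretic peptides, ranged from 46.9 to 137.7 CPM (median 108.5) in MetR_RT and from 226.5 to 337.6 CPM (median 269.8) in MetR_CE (1.44 ± 0.19, adjusted p = 8.6e-07). Lgr6, a receptor of R-spondins, ranged from 196.5 to 230.0 CPM (median 206.8) in MetR_RT and from 363.0 to 507.9 CPM (median 425.9) in MetR_CE (1.01 ± 0.09, adjusted p = 1.6e-09). On the falling side, Ptger3, a prostaglandin E2 receptor that lowers cyclic AMP, ranged from 69 to 122.7 CPM (median 95) in MetR_RT and from 31.3 to 47.6 CPM (median 42.5) in MetR_CE (-1.16 ± 0.14, adjusted p = 1.97e-07). Hcar1, the lactate receptor, which also lowers cyclic AMP, ranged from 10.6 to 22.4 CPM (median 12) in MetR_RT and from 4.09 to 8.54 CPM (median 6.21) in MetR_CE (-1.11 ± 0.18, adjusted p = 2.96e-05). The corticotropin receptor gene Mc2r fell as well (-2.05 ± 0.34). Of these 6 receptors, only Mc2r had groups that overlapped.

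Of 21 genes of insulin and growth factor signalling 2 rose and 2 fell (9.52% each). Pik3r1, the regulatory subunit of phosphoinositide 3-kinase, ranged from 122.7 to 232.8 CPM (median 145.4) in MetR_RT and from 41.3 to 94 CPM (median 71.4) in MetR_CE (-1.17 ± 0.20, adjusted p = 6.36e-05). Irs3, an insulin receptor substrate of adipocytes, ranged from 31.2 to 43.7 CPM (median 39) in MetR_RT and from 10.9 to 19.97 CPM (median 15) in MetR_CE (-1.39 ± 0.15, adjusted p = 4.14e-08). Both were lower in every cold library. Fgfr3 rose (0.80 ± 0.09), and Klb, the coreceptor of FGF21, overlapped (-0.29 ± 0.13).

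Of 19 clock genes tested, 2 rose (10.5%) and 3 fell (15.8%). Npas2 (-1.02 ± 0.24) fell, and its groups overlapped. Arntl (-0.65 ± 0.21), Per2 (0.93 ± 0.35) and Ciart (1.10 ± 0.29) were called with all libraries, with Arntl lower and the others higher, and none of the 3 was called without the muscle-rich libraries, where they stood at -0.46, 0.78 and 1.05 with 3 libraries in MetR_CE and 4 in MetR_RT. The last 2 stayed above 1.5-fold there and missed the adjusted p. Arntl was not called either without MetR_CE replicate 7 (-0.57) or MetR_RT replicate 3 (-0.53). Per2 was called without MetR_CE replicate 1 or 3 or MetR_RT replicate 2 or 6, and leaving out any other library ended its call (0.80 to 0.95). Leaving out the 3 libraries with another tag ended it too (0.95). Dbp (0.60 ± 0.31) and Nr1d1 (-0.03 ± 0.08) were not called.

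Genes of vessels and matrix moved in both directions. Of 25 endothelial and vessel genes 2 rose and 3 fell. Eng, endoglin, ranged from 129.4 to 165.4 CPM (median 145.3) in MetR_RT and from 242.8 to 296.8 CPM (median 280.9) in MetR_CE (0.93 ± 0.08, adjusted p = 8.04e-10), while Angpt1, a ligand that stabilises vessels, ranged from 3.67 to 7.57 CPM (median 6.41) in MetR_RT and from 1.51 to 2.78 CPM (median 2.26) in MetR_CE (-1.47 ± 0.21, adjusted p = 5.19e-06) and Aplnr, the apelin receptor, fell (-1.53 ± 0.26). The summed level of 5 endothelial markers ran from 670.5 to 783.2 CPM in MetR_RT and from 758.4 to 860.6 CPM in MetR_CE, with 0 of the 5 called, and its part in these values was not tested. Of 38 matrix genes 3 rose and 3 fell (7.89% each), with a median of -0.27. Col3a1, a fibrillar collagen, ranged from 86.6 to 147.2 CPM (median 103.2) in MetR_RT and from 40.3 to 88.9 CPM (median 54.7) in MetR_CE (-0.92 ± 0.26). Col6a2 fell (-0.71 ± 0.19), and Loxl1, which crosslinks elastin, rose (0.77 ± 0.10). Col1a1 (-0.60 ± 0.28) and Col1a2 (-0.61 ± 0.25) were not called, although Col1a2 was called without MetR_CE replicate 2 (-0.77). Without the muscle-rich libraries 1 matrix gene rose and 12 fell, Col1a1 (-0.93) and Col1a2 (-0.93) among them.

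Of 24 interferon-stimulated and antigen presentation genes 5 fell (20.8%, beside 5.13% of all genes tested) and 0 rose, with a median of -0.34. H2-Ab1, of the class II complex, ranged from 15.6 to 43.7 CPM (median 23.6) in MetR_RT and from 11.3 to 17.7 CPM (median 12.3) in MetR_CE (-0.84 ± 0.20), and its groups overlapped. H2-Aa (-0.74 ± 0.18), the invariant chain gene Cd74 (-0.64 ± 0.18) and Tap1 (-0.67 ± 0.17) fell too, but none of these 3 was called without MetR_RT replicate 6, where they stood at -0.54, -0.46 and -0.56. Tap1 was not called either without the 3 libraries with another tag (-0.57). Rsad2, an antiviral gene, ranged from 17 to 26.3 CPM (median 22.4) in MetR_RT and from 8.91 to 15.5 CPM (median 10.4) in MetR_CE (-0.96 ± 0.16, adjusted p = 3.98e-05). Of 20 macrophage genes 2 fell, Ccr2 (-1.10 ± 0.24) and Cx3cr1 (-1.26 ± 0.36), and Cx3cr1 was not called without the muscle-rich libraries (-1.22), while Adgre1 (-0.52 ± 0.28) and Cd68 (-0.00 ± 0.19) were not called. The summed level of 5 macrophage markers ran from 35.2 to 63.5 CPM in MetR_RT and from 26.2 to 42.7 CPM in MetR_CE, and 0 of the 5 were called. Of 20 lymphocyte and neutrophil genes tested 4 fell and 0 rose, among them Cd79a of B cells (-1.19 ± 0.24). The 6 lymphocyte markers summed to 2.59 to 3.52 CPM in MetR_RT and 1.5 to 2.35 CPM in MetR_CE. In whole tissue, fewer cells of a type and less RNA per cell cannot be told apart.

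Of 30 proliferation genes 2 rose (6.67%) and 1 fell (3.33%), near the 3.41% and 5.13% of all genes tested. Ccnd1, cyclin D1, ranged from 5.72 to 12.5 CPM (median 7.68) in MetR_RT and from 15.3 to 26.3 CPM (median 21.3) in MetR_CE (1.35 ± 0.26, adjusted p = 0.000184), and Cdkn1a, an inhibitor of the cell cycle, rose (0.69 ± 0.17), while the markers of dividing cells Mki67 (0.71 ± 0.54) and Top2a (0.52 ± 0.58) overlapped between the groups. Of 24 skeletal muscle genes 1 was called, Mb, ranging from 0.43 to 9.2 CPM (median 2.39) in MetR_RT and from 11.4 to 27.1 CPM (median 21.1) in MetR_CE, and it was called without the muscle-rich libraries as well. Acta1 (0.34 ± 1.26), Ckm (0.48 ± 1.23) and Myh4 (0.69 ± 1.39) overlapped between the groups. Among 30 chemokine, cytokine and complement genes tested 1 rose, Cxcl12 (0.73 ± 0.12), and 2 fell, Cxcl9 (-1.12 ± 0.19) and Ccl5, which is under 1 CPM, again near the shares of all genes.

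The same cold exposure on the control diet gave 1190 genes that rose (4.98%) and 2326 that fell (9.73%) between Ctrl_RT and Ctrl_CE, in groups of 6. No library enters both cold comparisons. Of the 815 genes that rose under MetR, 543 also rose under the control diet, which is 66.6% of the first list and 45.6% of the second. Of the 1226 that fell under MetR, 842 also fell under the control diet, 68.7% and 36.2% of the lists. A further 2 genes rose under MetR and fell under the control diet, and 0 did the reverse. Across the 12583 genes of at least 1 CPM the fold changes of both comparisons had a Pearson correlation of 0.85 and a Spearman correlation of 0.83, as a description over genes of the same libraries, which are not independent replicates. The genes that rose under MetR had a median log2 fold change of 0.92 there and 0.91 on the control diet, and those that fell had -0.90 and -0.92. The genes that rose on the control diet had a median of 0.93 there and 0.62 under MetR, and those that fell -1.07 and -0.60. Each list was chosen by its values in 1 of the comparisons, so these medians are a description.

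**Figure D4:**
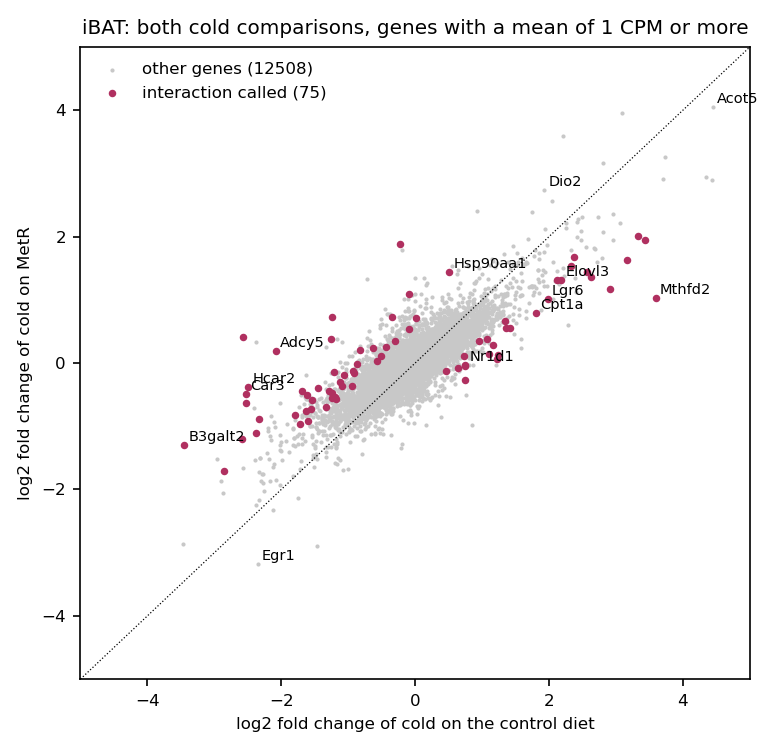
Log2 fold change of cold under MetR (vertical) against that of cold on the control diet (horizontal) for the 12583 genes of at least 1 CPM, with a dotted line of equal change. The changes rise together (Pearson correlation 0.85), and the 75 genes in red, whose difference between the diets was called, lie off it, with Mthfd2 far to the right and B3galt2 to the left.

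The test of the difference itself, the interaction of diet and temperature, called 59 genes with a more positive response under MetR (0.247%) and 30 with a more negative one (0.125%), and 2964 genes had an unadjusted p under 0.05. Without the 3 libraries with another tag it called 20 and 24, so that the more negative were then the more numerous. The called genes described here show patterns that can be read from the levels, and the other called genes were not sorted this way. The levels of MetR_RT and Ctrl_RT enter this test. A difference between them in these genes is thus partly built into their choice and is a description. The first is a rise in the cold that was smaller under MetR. Mthfd2 ranged from 3.18 to 5.56 CPM (median 4.1) in Ctrl_RT and from 4.7 to 73.9 CPM (median 62.4) in Ctrl_CE, and from 9.48 to 33.5 CPM (median 14.4) in MetR_RT and from 30.6 to 45.6 CPM (median 38.1) in MetR_CE. Every MetR_RT library stood above every Ctrl_RT library, and the Ctrl_CE libraries spread widely, with 1 of them at the level of Ctrl_RT. Its log2 fold change was 3.59 ± 0.40 on the control diet and 1.03 ± 0.33 under MetR, a difference of -2.56 ± 0.51, adjusted p = 0.0117. Lgr6 changed by 1.98 ± 0.10 on the control diet and 1.01 ± 0.09 under MetR (difference -0.97 ± 0.13, adjusted p = 0.000435). Elovl3 changed by 2.18 ± 0.13 and 1.31 ± 0.12 (difference -0.87 ± 0.17, adjusted p = 0.0121). Its medians were 327.5 CPM in Ctrl_RT, 583.8 CPM in MetR_RT, 1658 CPM in Ctrl_CE and 1486 CPM in MetR_CE. Cpt1a (1.80 ± 0.12 and 0.79 ± 0.11, difference -1.01 ± 0.16, adjusted p = 0.00206), Hsd17b7 (2.37 ± 0.13 and 1.68 ± 0.11, difference -0.69 ± 0.17, adjusted p = 0.0379) and Npr3 (2.57 ± 0.21 and 1.44 ± 0.19, difference -1.13 ± 0.27, adjusted p = 0.0374) followed the same pattern. Without the muscle-rich libraries the difference of Npr3 was -0.35 and that of Hsd17b7 -0.26, neither of them called, and Hsd17b7 was not called either without the 3 libraries with another tag or with the replicate number as a block.

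The remaining genes of that direction by the naming rule were Pde1c, a phosphodiesterase (-1.75 ± 0.37, adjusted p = 0.0175), Pla2g2e, a secreted phospholipase (-1.54 ± 0.37, adjusted p = 0.0374), Pimreg (-1.49 ± 0.29, adjusted p = 0.00984) and Vil1, villin, which stood at 0.07 ± 0.17 under MetR (-1.15 ± 0.26, adjusted p = 0.0275). Pla2g2e was not called without the 3 libraries with another tag (-1.56), and Vil1 was not called with all 27 iBAT libraries (-1.06). The clock repressor gene Nr1d1 changed by 0.75 ± 0.09 on the control diet and -0.03 ± 0.08 under MetR (difference -0.78 ± 0.12, adjusted p = 0.00146). Its medians at room temperature were 80.6 CPM in Ctrl_RT and 120.7 CPM in MetR_RT.

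The second pattern is a fall in the cold on the control diet that was smaller or not called under MetR, in genes whose MetR_RT median was already below that of Ctrl_RT. Hcar2, the receptor of nicotinic acid and ketone bodies, ranged from 2.66 to 7.39 CPM (median 6.66) in Ctrl_RT and from 0.68 to 1.49 CPM (median 1.04) in Ctrl_CE, and from 1.0 to 2.55 CPM (median 1.4) in MetR_RT and from 0.725 to 1.61 CPM (median 1.27) in MetR_CE. The Ctrl_RT libraries stood above those of the other 3 groups, which overlapped, and the difference between the responses was 2.11 ± 0.35, adjusted p = 0.00361. Adcy5, an adenylyl cyclase, ranged from 10.01 to 19.5 CPM (median 15.9) in Ctrl_RT and from 2.88 to 4.44 CPM (median 3.82) in Ctrl_CE, and from 2.68 to 4.65 CPM (median 3.17) in MetR_RT and from 1.83 to 6.6 CPM (median 2.95) in MetR_CE (difference 2.27 ± 0.30, adjusted p = 0.000435). Car3, the carbonic anhydrase abundant in fat, changed by -2.53 ± 0.34 on the control diet and -0.49 ± 0.30 under MetR (difference 2.04 ± 0.45, adjusted p = 0.0215). B3galt2, a galactosyltransferase, changed by -3.45 ± 0.29 and -1.29 ± 0.25 (difference 2.15 ± 0.38, adjusted p = 0.00557), and Hcar1 by -2.38 ± 0.20 and -1.11 ± 0.18 (difference 1.26 ± 0.26, adjusted p = 0.0168). Mpped2 fell on the control diet (-1.24 ± 0.25) and was higher under MetR (0.72 ± 0.25, difference 1.96 ± 0.36, adjusted p = 0.00665), though the second change was not called without MetR_CE replicate 1, 3, 5 or 6 or MetR_RT replicate 1, 2 or 4 (0.65 to 0.71). That change was not called either without the 3 libraries with another tag (0.64) or without the muscle-rich libraries (0.83). Without the 3 libraries with another tag, the difference of Car3 was not called (1.94), and without MetR_CE replicate 2 the fall of Car3 under MetR was called (-0.82). Acsm3 lay outside this pattern. It changed by -2.86 ± 0.22 on the control diet and -1.71 ± 0.20 under MetR, a called difference of 1.14 ± 0.29. Its MetR_RT median, 66.1 CPM, was above that of Ctrl_RT, 52.4 CPM.

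A rise that was larger under MetR was called in Hsp90aa1. It ranged from 176.2 to 513.1 CPM (median 276.8) in Ctrl_RT and from 344.9 to 517.0 CPM (median 412.3) in Ctrl_CE, and its log2 fold change was 0.51 ± 0.16 on the control diet against 1.44 ± 0.15 under MetR, a difference of 0.93 ± 0.22, adjusted p = 0.0361. The highest Ctrl_RT library stood within the range of Ctrl_CE, whereas the MetR groups were apart. The difference was not called without the 3 libraries with another tag (0.94) or with the replicate block (0.90). Hspb1 leaned the same way without passing the threshold (0.85 ± 0.24, adjusted p = 0.0852). Of the heat shock list as a whole 3 genes rose on the control diet and 8 under MetR. The other stress lists went the other way in the fit of all libraries. On the control diet 17 genes of the integrated stress response rose, against 9 under MetR. For the endoplasmic reticulum list the counts were 7 and 3, and for the antioxidant list 7 and 3. Over all genes tested, 4.98% rose on the control diet and 3.41% under MetR. Without the muscle-rich libraries 11 genes of the integrated stress response rose on either diet. There, the endoplasmic reticulum list had 8 on the control diet and 5 under MetR, and the antioxidant list 8 and 4. The heat shock list had 3 and 9. These differences in number were not tested.

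**Figure D5:**
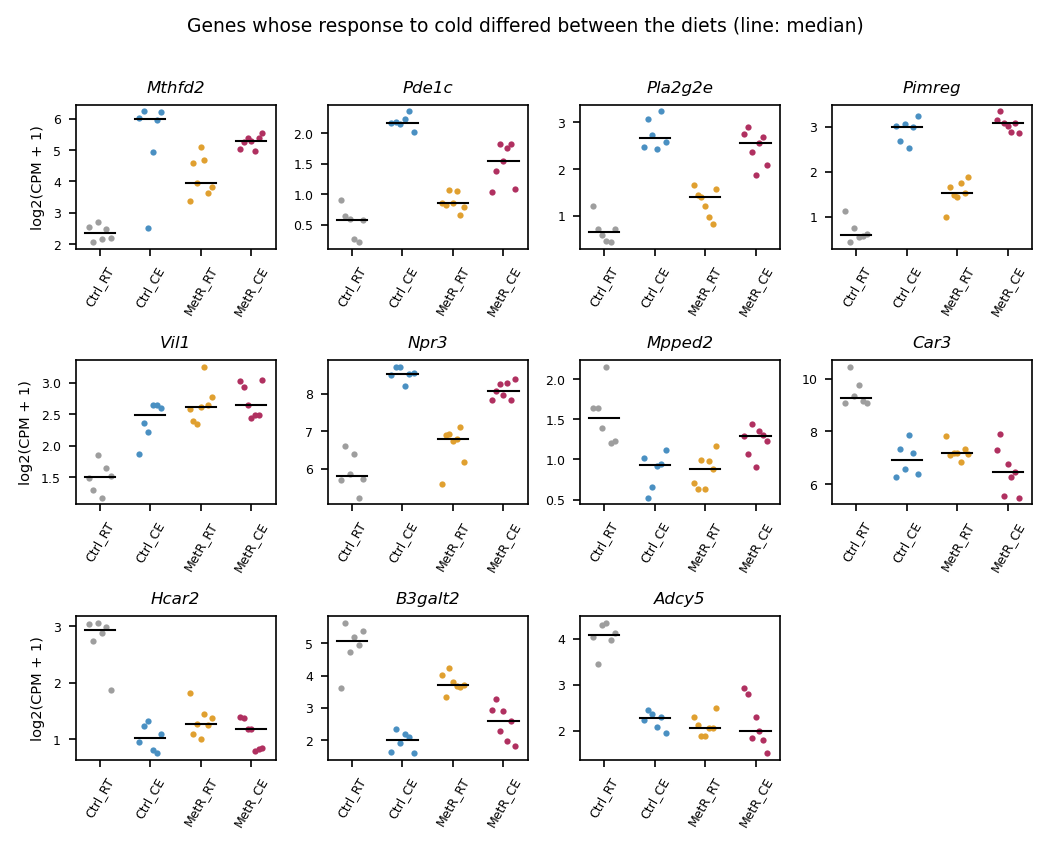
Normalized CPM, as log2(CPM + 1), of 11 genes named by size from the interaction of diet and temperature, in each of 26 iBAT libraries by group with a line at the median, and a vertical axis of its own for each gene. In the first 6 panels the medians rise more in the cold on the control diet than under MetR, and in the last 5 they fall in the cold on the control diet, from Ctrl_RT medians above those of MetR_RT. The room temperature levels enter the test by which the genes were chosen.

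Dio2 (1.93 ± 0.25 on the control diet, 0.81 ± 0.34, adjusted p = 0.299 for the difference), Ucp1 (0.86 ± 0.08, -0.18 ± 0.11, adjusted p = 0.528), Ppargc1a (2.44 ± 0.21, -0.16 ± 0.27, adjusted p = 0.874), Lpl (1.28 ± 0.12, 0.03 ± 0.16, adjusted p = 0.968) and Fgf21 (2.26 ± 0.21, -0.04 ± 0.28, adjusted p = 0.978) did not pass the test of a difference, which leaves room for the differences that these errors allow. The count of called differences was 44 without the 3 libraries with another tag, 198 with DESeq2 and 3 without the muscle-rich libraries, where 2 to 4 libraries were left in a group.

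The inguinal white fat (iWAT) was read beside iBAT in 1 joint fit of 53 libraries and 28303 genes. It had 7 libraries in each group but MetR_CE, which had 6, and the mouse identifiers gave 7 animals with both depots in MetR_RT and 6 in MetR_CE. There, cold on top of MetR gave 308 genes that rose (1.09%) and 691 that fell (2.44%) in iWAT. The difference between the depots was called for 236 genes with a more positive change in iBAT (0.834%) and 412 with a more negative one (1.46%). Across the 12583 genes of at least 1 CPM in iBAT, the correlation of the fold changes of both depots was 0.45. Nnmt changed by 0.50 ± 0.29 in iWAT, a difference of 2.65 ± 0.44, adjusted p = 0.000107. Cpne5 changed by 0.41 ± 0.52 there (difference 2.49 ± 0.71, adjusted p = 0.0284), Pimreg by 0.05 ± 0.30 (difference 1.88 ± 0.42, adjusted p = 0.0034) and Cd40 by -0.87 ± 0.23 against 1.18 ± 0.21 in iBAT (difference 2.04 ± 0.34, adjusted p = 7.18e-05). Cmah also differed (2.27 ± 0.42, adjusted p = 0.000368), and Sbk2 (2.25 ± 0.69, adjusted p = 0.046) was called in 2 of 5 alternative fits only. On the other side, Lep changed by 1.0 ± 0.35 in iWAT (difference -2.26 ± 0.52, adjusted p = 0.00533), Btc by 0.57 ± 0.30 (difference -2.30 ± 0.44, adjusted p = 0.000671), Mc2r by 0.14 ± 0.20 (difference -2.19 ± 0.36, adjusted p = 6.79e-05) and Zim1 by 1.47 ± 0.25 (difference -1.95 ± 0.36, adjusted p = 0.000385). Tbx21 fell in iBAT and stood at -0.15 ± 0.26 in iWAT (difference -1.89 ± 0.38, adjusted p = 0.00126), and Zc3h6 fell in iBAT and stood at -0.11 ± 0.16 in iWAT (difference -1.77 ± 0.22, adjusted p = 8.5e-07). With the mouse as a block, in limma voom, the differences of Cpne5, Lep and Sbk2 were not called.

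Among the groups described above, the change of Lpl was more positive in iBAT (0.43 ± 0.12 in iWAT, difference 0.86 ± 0.17, adjusted p = 0.000778), and so were those of Lipg (0.26 ± 0.29, 1.81 ± 0.40, adjusted p = 0.00349), Ckb (0.40 ± 0.24, 1.40 ± 0.33, adjusted p = 0.00649), Hsd17b7 (0.60 ± 0.17, 1.07 ± 0.24, adjusted p = 0.00376) and Hsp90aa1 (0.28 ± 0.15, 1.15 ± 0.20, adjusted p = 0.000253). Sqor fell in iBAT and stood at 0.05 ± 0.08 in iWAT, a difference of -1.01 ± 0.11, adjusted p = 7.21e-09. The difference was not called for Ucp1 (-0.30 ± 0.70, adjusted p = 0.911), Dio2 (-0.18 ± 0.55, adjusted p = 0.947), Ppargc1a (0.54 ± 0.37, adjusted p = 0.496), Fgf21 (-0.31 ± 0.41, adjusted p = 0.776) and Gdf15 (-0.71 ± 0.82, adjusted p = 0.724), and their log2 fold changes in iWAT were 0.97 ± 0.50, 2.91 ± 0.41, 1.72 ± 0.27, 2.52 ± 0.28 and 3.55 ± 0.50. That of Ucp1 was not called in iWAT (adjusted p = 0.233 in edgeR's test).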

How the data were processed

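RNA was extracted from iBAT with TRI reagent, poly(A) RNA was made into libraries with NEBNext kits, and paired-end reads were sequenced on a NovaSeq. The authors deposited whole-number read counts per gene, not normalized. The submitters' processing notes name STAR 2.7.9a, featureCounts 2.0.3, Salmon 1.9.0, MultiQC 1.19 and DESeq2 1.46.0. Gene symbols were taken from GENCODE gene names for 51948 of 56884 gene identifiers. Whether counting used strand is not given in the sources used here, so overlapping and antisense genes and near-identical copies are uncertain.

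Groups came from the sample titles. The 26 iBAT libraries (without Ctrl_CE replicate 5, inferred to be the library the study left out by matching mean normalized counts with the study's own, since the library is not named) entered 1 fit of genes with at least 10 counts in total, with TMM factors and edgeR 4.0.16's quasi-likelihood test in R 4.3.3, and p-values were adjusted by Benjamini-Hochberg over all genes tested. DEGs had an adjusted p under 0.05 and at least 1.5-fold change. The iBAT and iWAT libraries were fitted jointly for the difference between depots. Errors are standard errors of the log2 fold change, and CPM values are normalized. Each library carries 1 mouse identifier and is taken as 1 animal. The iBAT and iWAT of 1 animal were treated as separate in the main joint fit.

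Genes were named by a rule: the 12 largest rises and falls among DEGs of at least 1 CPM with groups that do not overlap, the 10 smallest adjusted p-values, key members of each gene list with up to 4 further DEGs in each direction, and the 6 largest differences in each direction for the interaction and for the depots. Some genes that these rules name are not reported here. Other genes named were chosen after their values were seen. The members and lists were chosen with earlier results of these data known. Alternatives were RLE factors, DESeq2 1.42.0, limma 3.58.1, other filters, groups by tag, a replicate block and leaving out libraries. The scripts were tested on simulated data.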

Additional observations from a re-analysis of the deposited data

Results flagged for a closer look

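Of 362 groups of 7 values, 1 for each of 181 genes named in the report and each MetR group, 10 had 1 library far from the others by Dixon's criterion, and chance alone flags about 1 in 20 groups. Acss2 stood at 506.8 CPM in MetR_CE replicate 7 against 389.2 to 434.0 CPM in the other libraries of that group. Adgre1 stood at 1.15 CPM in MetR_CE replicate 6 against 2.14 to 3.06 CPM in the other libraries of that group. Ccdc144b stood at 0.509 CPM in MetR_CE replicate 6 against 0.948 to 1.4 CPM in the other libraries of that group. Cxcl9 stood at 8.41 CPM in MetR_RT replicate 6 against 4.51 to 4.94 CPM in the other libraries of that group. Eci1 stood at 453.2 CPM in MetR_RT replicate 1 against 396.2 to 410.7 CPM in the other libraries of that group. Egr1 stood at 25.7 CPM in MetR_CE replicate 6 against 3.37 to 6.71 CPM in the other libraries of that group. Hspa1a stood at 4.81 CPM in MetR_RT replicate 4 against 0.402 to 0.775 CPM in the other libraries of that group. Lrtm1 stood at 0 CPM in MetR_CE replicate 4 against 0.351 to 1.07 CPM in the other libraries of that group. Mki67 stood at 0 CPM in MetR_RT replicate 4 against 0.258 to 0.652 CPM in the other libraries of that group. Prdm16 stood at 60.1 CPM in MetR_CE replicate 3 against 43.3 to 49.5 CPM in the other libraries of that group. Of these values, 3 belong to MetR_CE replicate 6, in which Egr1 was high and Adgre1 and Ccdc144b were low.

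The response to cold differed between the diets, by edgeR's test of the interaction at an adjusted p under 0.05 and at least 1.5-fold, for these genes of at least 1 CPM named in the report. Values are the log2 fold change under MetR minus that on the control diet. It was negative in Mthfd2 (-2.56), Pde1c (-1.75), Pla2g2e (-1.54), Pimreg (-1.49), Vil1 (-1.15), Npr3 (-1.13) and Cpt1a (-1.01). It was negative also in Lgr6 (-0.97), Elovl3 (-0.87), Nr1d1 (-0.78) and Hsd17b7 (-0.69). It was positive in Adcy5 (2.27), B3galt2 (2.15), Hcar2 (2.11), Car3 (2.04), Mpped2 (1.96), Hcar1 (1.26) and Acsm3 (1.14). It was positive also in Hsp90aa1 (0.93). Ccl5, which is under 1 CPM, was called as well (-2.81).

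The response to cold under MetR differed between the depots by the same criteria in the joint fit, given as the log2 fold change in iBAT minus that in iWAT. The difference was negative in Btc (-2.30), Lep (-2.26), Mc2r (-2.19), Zim1 (-1.95), Tbx21 (-1.89), Zc3h6 (-1.77) and Tmem179 (-1.68). The difference was negative also in Cdh23 (-1.60), Fgf14 (-1.56), Pid1 (-1.52), Angpt1 (-1.50), Cxcl9 (-1.19), B3galt2 (-1.17) and Grik5 (-1.05). The difference was negative also in Slc27a1 (-1.03), Sqor (-1.01), Irs3 (-0.97) and Nr3c2 (-0.74). The difference was positive in Nnmt (2.65), Cpne5 (2.49), Cmah (2.27), Sbk2 (2.25), Cd40 (2.04), Pimreg (1.88) and Lipg (1.81). The difference was positive also in Atf3 (1.75), Ccnd1 (1.63), Sdf2l1 (1.56), Ckb (1.40), Psat1 (1.36), Ffar4 (1.32) and Tbc1d9 (1.21). The difference was positive also in Cyp51 (1.20), Hsp90aa1 (1.15), Hsd17b7 (1.07), Hspb1 (0.94), Lpl (0.86), Hsp90ab1 (0.85) and Fgf1 (0.80). The difference was positive also in Prkar2a (0.60).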

How the results depend on the processing

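The count of DEGs between MetR_CE and MetR_RT, 2041, was 1797 to 2066 with RLE factors, DESeq2, filterByExpr, no filter, all 27 iBAT libraries, the MetR groups alone or without the 3 libraries with another tag. It was 950 with groups taken from the tag, where 3 libraries change place, and 328 with a test against the 1.5-fold threshold itself (glmTreat), which calls 191 higher and 137 lower. Leaving out each of the 14 libraries in turn gave 1847 to 2067. With the replicate number as a block it was 1940, of which 1878 were shared. The numbers did not pair the samples, since the correlation of deviations of same-numbered libraries ran from -0.53 to 0.21 and only replicate 2 correlated best with its own number. The block changed the call between MetR_CE and MetR_RT of 1 of 181 genes named, Car3. None of these 181 genes changed direction in any of 25 alternatives where it was called in the main fit or in that alternative. Changes of sign in genes called in neither were not counted. The interaction count, 89, was 44 (20 more positive and 24 more negative, against 59 and 30) without the 3 libraries with another tag, 198 with DESeq2, 136 with filterByExpr, 1 with glmTreat, 1 with groups by tag, 3 without the muscle-rich libraries (an alternative chosen after seeing the data) and 68 with the replicate block. Of the 19 genes of at least 1 CPM named in the report with a called interaction, 0 were called with groups by tag. With glmTreat 1 was called (Adcy5), and without the muscle-rich libraries 1 (B3galt2). Without the 3 libraries with another tag 14 were called (not Acsm3, Car3, Hsd17b7, Hsp90aa1 and Pla2g2e). With the block 15 were called (not Acsm3, Hsd17b7, Hsp90aa1 and Vil1). Ccl5, which is under 1 CPM, is not among the 19. The 3516 DEGs of cold on the control diet were 1120 with glmTreat, 2738 without the muscle-rich libraries and 3175 with the block. The difference between the depots, 648, was 525 to 740, with 659 under the block and 683 with limma voom and the mouse as a block, where Cpne5, Lep and Sbk2 were not called. RLE factors moved the share of higher calls from 36.4% to 45.8%. The cause of these changes was not tested. Genes under 1 CPM, 508 of those that fell, rest on few counts.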
